A study of Mus musculus with 4 samples.

Results

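The transcripts described here encode the Wnt ligands, the proteins that release and receive them, the complex that degrades beta-catenin, and the nuclear factors that beta-catenin binds. Rows were taken by gene symbol: all Wnt, Frizzled (Fzd) and Dishevelled (Dvl) family symbols, and a fixed set of partners. A total of 52 of the 16857 genes in the table met this rule. Rspo2 and Rspo3, which the rule also names, had no row under these symbols. RNA was sequenced from 4 mouse adenoma colonoid lines, which are epithelial cultures grown from colon adenomas, with 1 library a line. The G2 group held lines 157 and 236 (replicates 1 and 2), labelled Apcnull/LSL-mTERT-homo. The G0 group held lines 75 and 179 (replicates 1 and 2), labelled Apcnull/LSL-mTERT-het. All 4 lines were therefore labelled as lacking Apc and carry Apcmin in their names, and the groups differ in the G0 or G2 of the name and in whether the LSL-mTERT allele of the telomerase gene Tert is labelled het or homo. The labels do not spell out G0 and G2, which in telomerase mutant mice usually name generations, and the name and the allele cannot be told apart as sources of a difference. The series text describes colonoids with low and high chromosomal instability (CIN), without a label that ties either state to a group. No source used here gives age, a Cre driver or the mouse from which each line came, so p-values measure only the spread between these lines.

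Wnt ligands are lipid-modified secreted proteins that bind a Frizzled receptor together with the co-receptor LRP5 or LRP6. Without ligand, a complex of APC, AXIN, GSK3 and casein kinase 1 marks beta-catenin for degradation, and with ligand, Dishevelled helps to switch that complex off, so that beta-catenin enters the nucleus and acts with TCF/LEF factors. In the intestine this pathway maintains crypt stem cells, and loss of APC activates it inside the cell without the need for a ligand. A separate branch, which does not use beta-catenin, runs through receptors such as ROR2 and RYK and through planar polarity proteins.

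The totals recovered from the table were 16545429 and 17156331 counts in the G2 libraries and 17152994 and 17901744 in the G0 libraries. Tert itself had normalized counts of 0 and 0.98 in G2, against 93.3 and 97.5 in G0. In the limma test Tert was lower in G2 (adjusted p = 0.00128). The Y-linked transcripts Kdm5d, Eif2s3y, Uty and Ddx3y lay between 296 and 526 normalized counts in the G2 libraries and were at 0 in both G0 libraries. Every difference between the groups therefore coincides with the presence of Y transcripts, and these cannot be told apart. The epithelial markers Epcam, Krt8 and Krt19 were abundant in all 4 lines. The intestinal transcription factor gene Cdx2 averaged 228.5 ± 59.1 normalized counts in G2 and 2797 ± 568 in G0, and the brush border gene Vil1 averaged 1259 ± 667 in G2 and 5559 ± 1166 in G0 (SD, n = 2 each). Both fell (limma, adjusted p = 0.00043 and 0.0103), whereas the adhesion gene Cdh1 rose 1.80-fold (adjusted p = 0.0171). The other 5 of 8 epithelial markers did not pass, where 10.5% of all genes tested passed in either direction. In bulk RNA, fewer cells of a type and less RNA per cell cannot be told apart.

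The Frizzled genes Fzd3 and Fzd7 and the ligand gene Wnt16 rose in G2, and the Frizzled genes Fzd1 and Fzd10, the ligand gene Wnt5b and the receptor gene Ror2 fell. Members averaging 1 normalized count or more numbered 46, and 7 of them passed the limma test at an adjusted p of 0.05 (15.2%), where 10.5% of all 13981 genes tested did so. Higher in G2 were 3 of them (5.93% of all genes tested), and lower were 4 (4.56%). Of the 30 tested ligand, ligand-release and receptor genes 7 passed, and of the 16 tested Dishevelled, destruction complex and nuclear genes 0 passed, with 3 of these at an unadjusted p under 0.05. The difference between these counts was not tested. Over all 46, 17 had an unadjusted p under 0.05 (26.8% of all genes tested). Normalized counts are the recovered counts divided by a size factor per library, itself recovered from the deposited values, a fold is the ratio of group means, and every adjusted p is two-sided and taken over all genes tested. Each call rests on having both lines of both groups, and so does that of Tert, so this limit is not particular to these members. When any of the 4 libraries was left out, the 7 kept their directions. Their folds moved by at most 1.03 times (Fzd1) to 3.41 times (Wnt5b). Without an intensity trend in the limma fit, Fzd3 kept its call and the other 6 did not (adjusted p up to 0.136).

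**Figure D1:**
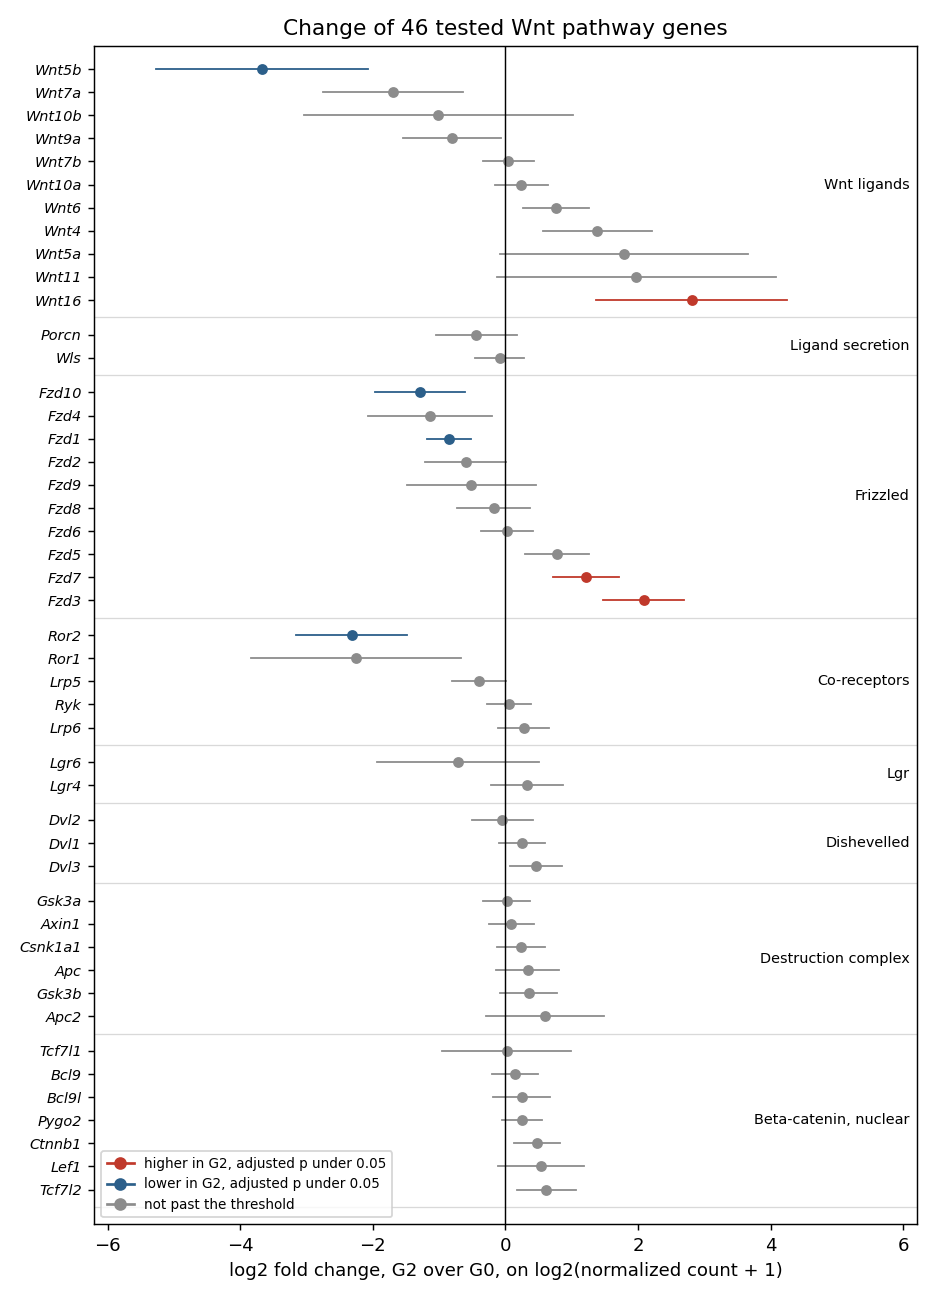
log2 fold change of G2 over G0 (horizontal axis, on log2(normalized count + 1)) for the 46 tested members, grouped by role. Points are limma estimates and bars their 95% intervals. Red marks the 3 genes that rose and blue the 4 that fell. All 7 sit among ligands, Frizzled genes and co-receptors. The 16 genes of the Dishevelled, destruction complex and nuclear classes, with folds between 0.964 and 1.54, hold 0. Of all genes tested 10.5% passed, and the difference between the classes was not tested.

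Among the ligands the dominant gene did not pass the test, and the 2 that did were scarce. Wnt7b, a ligand made by many epithelia, had 8162 and 6746 normalized counts in G2, against 6657 and 7768 in G0. These values overlap, and the fold was 1.03 (95% limma interval 0.79 to 1.34, adjusted p = 0.88). Per kilobase of transcript, the scale on which genes can be compared, Wnt7b made up 83.7% ± 1.0 of all Wnt ligand transcripts in G2 and 85.2% ± 1.4 in G0 (SD, n = 2 each). Wnt10a came next, with 182 ± 2.8 normalized counts per kilobase in G2 and 154 ± 12.8 in G0, followed by Wnt6 with 141 ± 11.9 in G2 and 83.5 ± 11.3 in G0. Wnt10a and Wnt6 are neighbours on chromosome 1, 6697 bases apart. Both groups of libraries were separate for each of them, with G2 higher, and neither passed the test (adjusted p = 0.39 and 0.0679).

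Wnt5b fell and Wnt16 rose. Wnt5b, on chromosome 6 from 119432531 to 119544824 (GRCm38.p6), encodes a ligand that acts mostly through the branch without beta-catenin. It had 1.01 and 5.86 normalized counts in G2, against 57.0 and 37.6 in G0. Both G2 lines were far below both G0 lines, and the mean was 13.8-fold lower (log2 fold change -3.67, SE 0.68, adjusted p = 0.0189). The G2 level rests on 7 counts in all, and the fold was 46.9 without G2 replicate 2 and 8.06 without G2 replicate 1. Wnt16, a ligand known mainly for its part in bone, lies on chromosome 6 from 22288178 to 22298522. It had 13.1 and 30.3 normalized counts in G2, against 1.96 and 2.03 in G0. The groups did not overlap and the mean was 10.9-fold higher (log2 fold change 2.81, SE 0.61, adjusted p = 0.0321), from 44 counts in G2 and 4 in G0. Its fold was 15.2 without G2 replicate 1 and 6.56 without G2 replicate 2. On the deposited scale Wnt16 missed the threshold (adjusted p = 0.0543), and its log2 difference there was 0.47.

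The other detected ligands differed in both directions without passing in the limma test above, and those named here were chosen after their values were seen. Wnt4, a ligand of several developing epithelia, had 405 and 196 normalized counts in G2, against 106 and 109 in G0 (2.80-fold, adjusted p = 0.0509). Wnt7a, the close relative of Wnt7b, had 39.3 and 105.6 in G2, against 199 and 224 in G0 (2.92-fold lower, adjusted p = 0.0574). The G2 lines differed from each other by more than the G0 lines did in both genes. The Wnt4 fold was 1.83 without G2 replicate 1 and 3.78 without G2 replicate 2. Wnt7a was 2.01-fold lower without G2 replicate 1 and 5.39-fold lower without G2 replicate 2. With only genes averaging 10 or more normalized counts tested, both passed in limma (adjusted p = 0.0376 for Wnt4 and 0.0433 for Wnt7a). Without an intensity trend both were further from passing (adjusted p = 0.162 for Wnt4 and 0.181 for Wnt7a). Wnt9a had 105.9 and 63.5 normalized counts in G2, against 151 and 137 in G0 (adjusted p = 0.158). The 7 remaining ligand genes reached at most 9.77 normalized counts in a library, and of these Wnt5a, Wnt10b and Wnt11 were tested and did not pass. Wnt5a, the best known ligand of Ror2, had 3.03 and 1.95 normalized counts in G2 and 0 in both G0 libraries, at or close to the limit of 3 counts that a count of 0 allows. Wnt1 and Wnt2b each had 1 count in the whole data set. Wnt3, which Paneth cells make in the mouse small intestine, and its neighbour Wnt9b had 0 counts in all 4 libraries. Summed over the ligands other than Wnt7b, the level was 460 ± 28.9 normalized counts per kilobase in G2 and 396 ± 1.8 in G0.

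**Figure D2:**
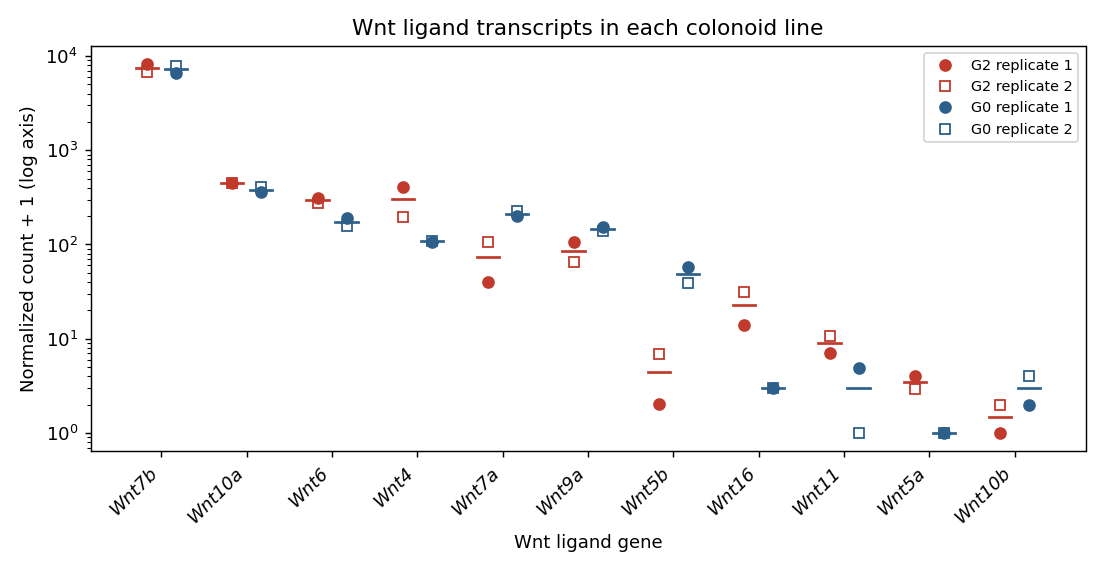
Normalized count + 1 (vertical log axis) of the 11 tested Wnt ligand genes in each line. G2 points are red and G0 points blue, circles are replicate 1, squares replicate 2, and bars the group means. Wnt7b lies between 6657 and 8162 in all 4 lines, while Wnt5b lies lower and Wnt16 higher in both G2 lines.

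Ligand genes are known to be active in the mesenchyme around the crypt, so markers of other cell types were read in the same libraries. The fibroblast markers Dcn and Pdgfra were at 0 in all 4 libraries, and Col1a1 stayed between 1.01 and 4.91 normalized counts. The 8 mesenchymal markers with a row summed to 193 and 445 in G2, against 14.7 and 10.2 in G0, and in G2 nearly all of it came from the smooth muscle actin gene Acta2. Of the 3 mesenchymal markers tested Acta2 and Col3a1 rose, where 5.93% of all genes tested did so. Col3a1 was scarce, with 7.06 and 6.84 normalized counts in G2 and 0 in both G0 libraries. The macrophage markers summed to 3280 and 4118 in G2, against 2121 and 3341 in G0, which overlap. Nearly all of this came from Cd68 and Cd14. Cd68 had 1151 and 1892 in G2, against 1129 and 2110 in G0, and did not pass (limma, adjusted p = 0.918). Cd14 and Csf1r rose among 4 tested. Cd14 had 2106 and 2197 in G2, against 991 and 1230 in G0. Csf1r was scarce, with 16.1 and 4.89 in G2 and 0 in both G0 libraries. The leukocyte marker Ptprc was at 0 throughout. Of the remaining lists, 1 of 1 endothelial marker tested rose (Tek), as did 0 of 2 Paneth cell and 0 of 1 glial markers. Of 6 stratified epithelium markers 2 rose. The keratin genes Krt14 and Krt6a rose 3.06-fold and 2.97-fold (adjusted p = 0.00227 and 0.00547), whereas Krt5 reached at most 9.08 normalized counts in a library. The part of these markers in the ligand and receptor results was not tested.

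The genes for ligand release did not pass. Wls, which carries Wnt proteins to the cell surface, had 2337 and 2470 normalized counts in G2, against 2880 and 2255 in G0 (adjusted p = 0.761). Porcn, the enzyme that attaches the lipid to Wnt proteins, had 128 and 184 in G2, against 190 and 229 in G0 (adjusted p = 0.32). Porcn is on the X chromosome, where the median log2 fold change over 436 genes was 0.008. The G2 lines were lower for Porcn and overlapped G0 for Wls. R-spondins are secreted proteins that strengthen Wnt signals and are usually supplied to such cultures from outside. Rspo1 and Rspo4 had 0 counts in all 4 libraries, which allows at most 3 counts a library.

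The Frizzled receptors held 4 of the 7 calls. All 10 genes passed the filter on low values, and of these 2 rose and 2 fell (40%, against 10.5% of all genes). The groups did not overlap for 8 of the 10 genes, where 57.8% of all genes tested showed the same. Fzd3, best known in mice for axon guidance, lies on chromosome 14 from 65192441 to 65262463. It had 324 and 424 normalized counts in G2, against 101 and 74.2 in G0. Both G2 lines exceeded both G0 lines, and the mean was 4.27-fold higher (log2 fold change 2.08, SE 0.26, adjusted p = 0.00491). Fzd7, a receptor that crypt stem cells use in mice, lies on chromosome 1 from 59482147 to 59486955. It had 639 and 468 normalized counts in G2, against 223 and 249.9 in G0. It was 2.34-fold higher (log2 fold change 1.21, SE 0.21, adjusted p = 0.0152), with no overlap.

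Fzd1, which belongs to the same subfamily as Fzd7, lies on chromosome 5 from 4753839 to 4758216. It had 616 and 655 normalized counts in G2, against 1173 and 1119 in G0. The lines of each group were close together, and the mean was 1.80-fold lower (log2 fold change -0.85, SE 0.14, adjusted p = 0.0120). Fzd10, on chromosome 5 from 128601106 to 128604093, had 219.9 and 124 normalized counts in G2, against 403 and 405 in G0. Both G2 lines were lower, the second more so, and the mean was 2.35-fold lower (log2 fold change -1.28, SE 0.29, adjusted p = 0.0354). Without a filter on low values, or with libraries scaled by their totals, Fzd10 missed the threshold (adjusted p = 0.0668 and 0.0542).

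The 6 Frizzled genes that did not pass included abundant ones. Fzd6, a planar polarity receptor, had 739 and 859 normalized counts in G2, against 865 and 709 in G0, a fold of 1.02 with a 95% interval of 0.77 to 1.34 (adjusted p = 0.936). Fzd5, which mouse Paneth cells need to mature, had 750.3 and 541 in G2, against 393 and 352 in G0 (1.73-fold, 95% interval 1.23 to 2.39, adjusted p = 0.0570). The groups were separate for Fzd5 and overlapped for Fzd6. Fzd2, the third member of the Fzd1 subfamily, had 198 and 326 in G2, against 382 and 390.1 in G0 (adjusted p = 0.195). The highest library held 37.3 normalized counts of Fzd4, 44.7 of Fzd9 and 167 of Fzd8, and their adjusted p lay between 0.121 and 0.664. Fzd2, Fzd4, Fzd5, Fzd8 and Fzd9 were described with their values known.

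**Figure D3:**
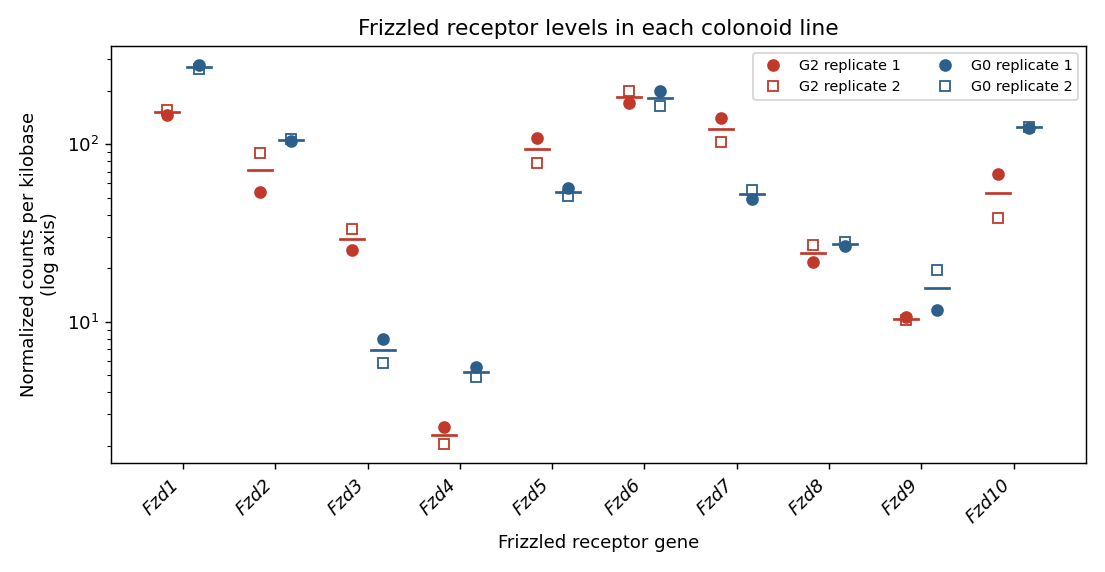
Normalized counts per kilobase (vertical log axis) of the 10 Frizzled genes in each line, G2 in red and G0 in blue, circles for replicate 1, squares for replicate 2 and bars for the group means. Fzd3 and Fzd7 lie higher and Fzd1 and Fzd10 lower in both G2 lines than in both G0 lines, while Fzd6 overlaps.

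Expressed per kilobase, the order of the receptors differed between the groups while their sum was modestly lower in G2. The sum of all Frizzled transcripts was 749 and 736 normalized counts per kilobase in G2, against 866 and 826 in G0, a ratio of means of 0.878 (0.917 with libraries scaled by their totals). Without division by length the sums overlapped, at 3657 and 3596 in G2, against 3764 and 3544 in G0. The order also depends on the length used, since Fzd5 (750.3) exceeded Fzd6 (739) in G2 replicate 1 before division. Per kilobase, Fzd6 ranked 1 in both G2 lines and 2 in both G0 lines, and Fzd1 ranked 2 in both G2 lines and 1 in both G0 lines. Fzd7 ranked 3 in both G2 lines, against 6 and 5 in the G0 lines. Fzd10 ranked 5 and 6 in G2 and 3 in both G0 lines. The share of Fzd1 was 20.4% ± 1.1 in G2 and 32.3% ± 0.01 in G0, and that of Fzd7 was 16.4% ± 3.4 in G2 and 6.18% ± 0.70 in G0 (SD, n = 2 each). The level of Fzd7 relative to Fzd1, per kilobase, was 0.961 and 0.662 in the G2 lines, against 0.176 and 0.207 in the G0 lines. For Fzd6 relative to Fzd3 it was 6.72 and 5.96 in G2, against 25.2 and 28.2 in G0. An exact permutation test on such values cannot go below p = 0.33 with 2 lines a group, so they are given as a description. Since Fzd1, Fzd3 and Fzd7 passed the limma test in the same libraries, these ratios restate those calls and add no support.

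The known subfamilies show how these opposite changes added up. Fzd1, Fzd2 and Fzd7 together held 46.5% ± 1.2 of Frizzled transcripts in G2 and 50.9% ± 1.3 in G0. The group of Fzd4, Fzd9 and Fzd10 held 8.82% ± 2.78 in G2 and 17.2% ± 1.2 in G0, most of it Fzd10. Fzd5 and Fzd8 held 15.8% ± 2.2 in G2 and 9.60% ± 0.08 in G0. Fzd3 and Fzd6 held 28.9% ± 3.7 in G2 and 22.3% ± 2.5 in G0. In each subfamily the shares of the G2 lines and of the G0 lines did not overlap, where 57.8% of all single genes tested did not. Shares of 1 total are not independent of each other. As a level per kilobase, Fzd3 and Fzd6 together overlapped, with 196 and 232 in G2, against 208 and 170 in G0. The levels of the other subfamilies were separate.

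**Figure D4:**
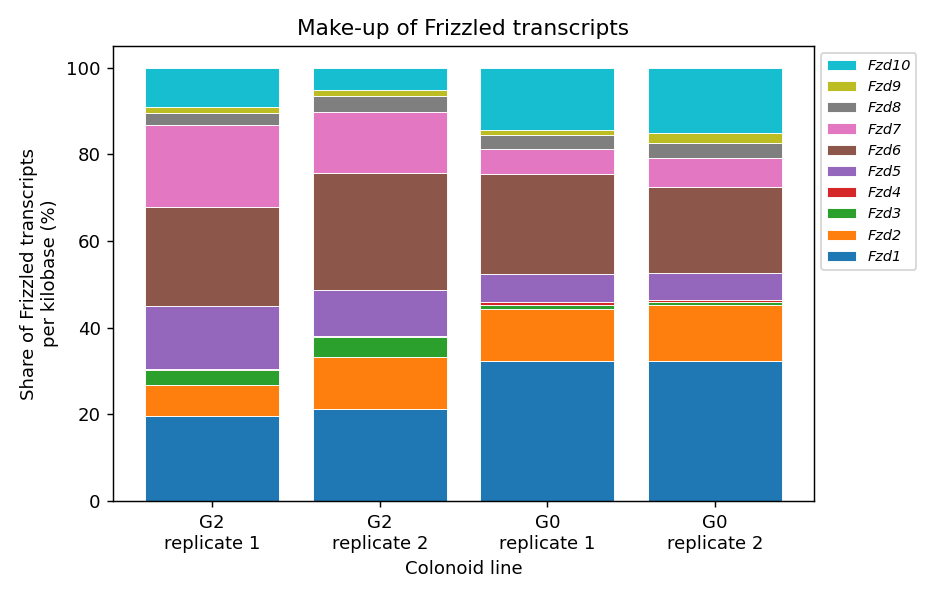
Share of each Frizzled gene in the sum of normalized counts per kilobase over the 10 genes (vertical axis, percent), with G2 lines left and G0 lines right. The Fzd7 and Fzd5 segments are wider and the Fzd1 and Fzd10 segments narrower in the G2 bars.

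Among the co-receptors and other receptors, Ror2 fell and the abundant genes did not pass. Ror2, a receptor tyrosine kinase that binds Wnt5-type ligands, lies on chromosome 13 from 53109317 to 53286124. It had 25.2 and 39.1 normalized counts in G2, against 134 and 194 in G0. Both G2 lines were below both G0 lines, and the mean was 5.09-fold lower (log2 fold change -2.32, SE 0.35, adjusted p = 0.00933). Its relative Ror1, chosen after its values were seen, had 2.02 and 0.98 in G2, against 15.7 and 7.11 in G0 (adjusted p = 0.0806). Lrp5, the more abundant of the LRP co-receptors, had 4581 and 4822 in G2, against 5344 and 7195 in G0 (1.33-fold lower, adjusted p = 0.193). Lrp6 had 1600.5 and 1496 in G2, against 1452 and 1127 in G0 (adjusted p = 0.319). The groups of Lrp5 and of Lrp6 were separate, in opposite directions, by less than the test could call. Ryk, a Wnt receptor without kinase activity, had 1849.6 and 2212 in G2, against 1962 and 1930.02 in G0 (adjusted p = 0.831). The R-spondin receptor gene Lgr4 had 1098 and 1003 in G2, against 1063 and 660.3 in G0 (adjusted p = 0.405). Lgr6 reached at most 15.2 normalized counts in a library (adjusted p = 0.41).

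Promoter sequence was examined for some of the receptor and ligand genes that passed, with the TCF/LEF motif CTTTGA as the pattern of interest, since TCF factors carry the output of beta-catenin. RefSeq start sites (GRCm38.p6) were found for 38 of the 52 genes, without Fzd3. The 250 bases before the start are shown for Fzd7, which rose, for Fzd1, which fell and is its close relative, and for Ror2 and Wnt5b, a receptor and a ligand of the branch without beta-catenin that both fell. Wnt5b has 3 RefSeq starts, and the window of the most downstream is shown because it is the one that holds the motif. Capitals mark the motif on either strand, written 5′ to 3′ along the gene.
Fzd7 (chr1:59481897-59482146, plus strand): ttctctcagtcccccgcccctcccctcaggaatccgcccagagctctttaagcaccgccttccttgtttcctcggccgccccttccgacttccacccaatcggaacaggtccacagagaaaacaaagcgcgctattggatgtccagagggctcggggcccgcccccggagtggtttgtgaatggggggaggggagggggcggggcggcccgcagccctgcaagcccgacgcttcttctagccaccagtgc
Fzd1 (chr5:4758217-4758466, minus strand): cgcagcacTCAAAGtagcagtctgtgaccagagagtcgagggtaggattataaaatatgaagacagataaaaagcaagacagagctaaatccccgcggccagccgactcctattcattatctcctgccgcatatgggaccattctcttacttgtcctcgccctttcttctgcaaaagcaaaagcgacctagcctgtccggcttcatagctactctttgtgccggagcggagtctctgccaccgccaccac
Ror2 (chr13:53286125-53286374, minus strand): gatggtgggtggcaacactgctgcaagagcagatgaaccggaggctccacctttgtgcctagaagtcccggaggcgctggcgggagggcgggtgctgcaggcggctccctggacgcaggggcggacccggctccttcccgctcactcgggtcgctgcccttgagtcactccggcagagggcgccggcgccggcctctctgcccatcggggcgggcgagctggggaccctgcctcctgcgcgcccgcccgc
Wnt5b (chr6:119449387-119449636, minus strand): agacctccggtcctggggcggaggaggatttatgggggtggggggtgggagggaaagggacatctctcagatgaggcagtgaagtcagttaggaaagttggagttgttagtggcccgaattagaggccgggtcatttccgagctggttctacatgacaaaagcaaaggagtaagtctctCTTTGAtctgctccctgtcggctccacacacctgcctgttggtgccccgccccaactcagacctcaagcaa
The motif occurred 1 time in the Fzd1 window, with its first base 242 bases before the start and on the opposite strand, and 1 time in the Wnt5b window, 71 bases before the start. These letters are not in the Fzd7 or Ror2 windows, in the other 2 windows of Wnt5b, or in those of Fzd10 and Wnt16, which also passed. Of all 32851 promoter windows of this length 13.8% held CTTTGA on either strand, as did 7 of the 51 windows of members. The longer form CTTTGAT, which contains it, was in 3.21% of all windows and in the Wnt5b window shown. The Fzd1 and Wnt5b windows shown had 51.2% and 55.6% G and C bases, and those of Fzd7 and Ror2 65.2% and 73.2%, while the other Wnt5b windows had 75.2% and 53.2%, where the median window had 52.4%. The expression data do not show which of the 3 Wnt5b starts was in use.

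Inside the cell 0 of 16 tested members passed, where 10.5% of all genes tested did so. With so few genes, a count of 0 does not set this class apart. The Dishevelled genes, whose proteins relay the signal from Frizzled, were all well expressed. Dvl3 had 2096 and 1953 normalized counts in G2, against 1686 and 1286 in G0 (1.36-fold, adjusted p = 0.133). Dvl1 had 1583 and 1542 in G2, against 1187 and 1455 in G0 (adjusted p = 0.324). The groups were separate for both. Dvl2 overlapped, with 434 and 512 in G2, against 425 and 556 in G0 (adjusted p = 0.904).

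In the destruction complex, Apc had 3340.1 and 2553 normalized counts in G2, against 2708 and 1983 in G0 (1.26-fold, 95% interval 0.91 to 1.75, adjusted p = 0.329). The groups overlapped, and a transcript level does not check the Apc mutation that the labels name. Gsk3a, a kinase of the complex, was its most abundant member per kilobase, at 2496 ± 275 normalized counts per kilobase in G2 and 2468 ± 269 in G0 (fold 1.01, 95% interval 0.79 to 1.30). Csnk1a1, the casein kinase that primes beta-catenin for GSK3, had 4842 and 5123 normalized counts in G2, against 4709 and 3796 in G0 (adjusted p = 0.36). The scaffold gene Axin1 had 1538 and 1657 in G2, against 1386 and 1624 in G0 (adjusted p = 0.726). Axin1 and Gsk3a overlapped between the groups, and Csnk1a1 did not. Gsk3b and Apc2 had higher means in G2 and adjusted p of 0.269 and 0.351.

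Ctnnb1, which encodes beta-catenin, was the most abundant transcript of all 52 members, at 4303 ± 66 normalized counts per kilobase in G2 and 3094 ± 235 in G0 (SD, n = 2 each). It had 15759 and 15421 normalized counts in G2, against 11811 and 10608 in G0. Both G2 lines exceeded both G0 lines, and the fold of 1.39 (95% interval 1.09 to 1.78) did not pass over all genes (adjusted p = 0.0908). Pygo2, a coactivator that reaches beta-catenin through BCL9 proteins, had 2093 and 2091 in G2, against 1682 and 1841 in G0 (adjusted p = 0.262). Bcl9l had 4958 and 3788 in G2, against 3292 and 4075 in G0 (adjusted p = 0.43). Pygo2 was separate and Bcl9l overlapped. Of the TCF/LEF genes among the members, Tcf7l2, often described as the main one in intestinal epithelium, had 477.0 and 478.0 in G2. It had 349.6 and 276 in G0 (1.53-fold, limma, adjusted p = 0.0843). In these lines Tcf7, taken up with the further genes below, was more abundant and lower in G2. Per kilobase Tcf7 averaged 322 in G2 and 497 in G0, against 150 and 98.0 for Tcf7l2. Lef1 had 166 and 128 in G2, against 88.4 and 114 in G0 (adjusted p = 0.254). The groups were separate for both Tcf7l2 and Lef1, a pair picked with their values in view. Tcf7l1, mostly a repressor, averaged 41.5 ± 17.3 in G2 and 39.5 ± 7.3 in G0.

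Over these 16 intracellular genes, 15 had a log2 fold change above 0, as did 7138 of all 13981 genes tested. The median over the 16 was 0.25, against 0.01 for all genes tested. With libraries scaled by their totals the count was 16 of 16, Dvl2 being the gain, and the median of all genes rose too. Both G2 lines exceeded both G0 lines for 10 of the 16, where 29.2% of all genes tested did so, and both were lower for 0, where 28.6% did so. Their folds lay between 0.964 and 1.54. Genes are not independent of each other, so these counts are a description.

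**Figure D5:**
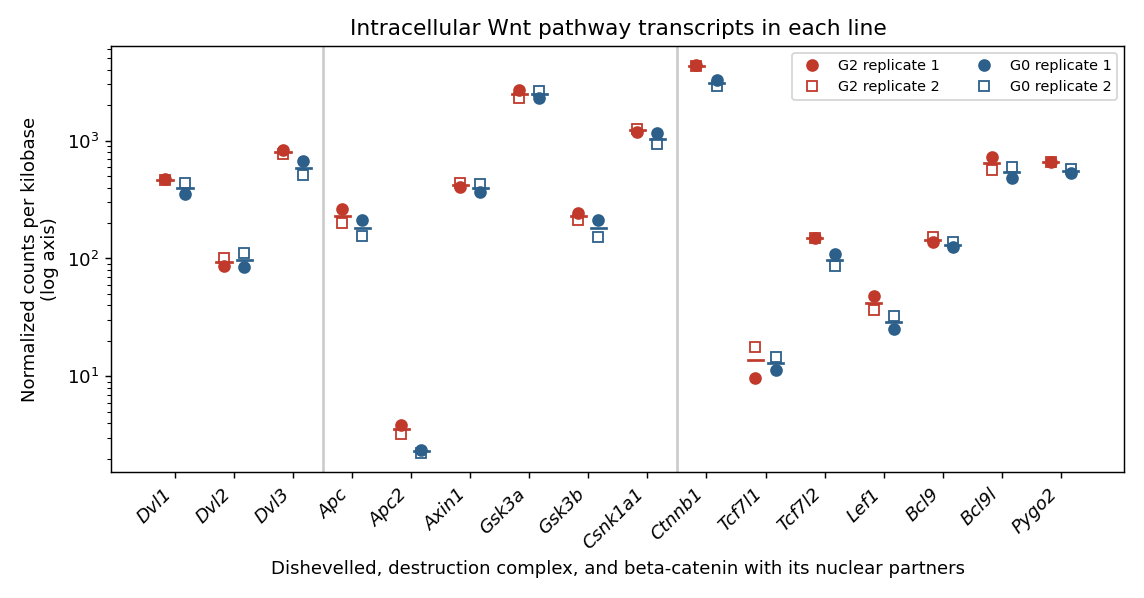
Normalized counts per kilobase (vertical log axis) of the 16 intracellular members in each line, G2 in red and G0 in blue, circles for replicate 1, squares for replicate 2 and bars for the group means. Vertical lines part the Dishevelled genes, the destruction complex, and beta-catenin with its nuclear partners. Ctnnb1 is the highest and 10 of the 16 genes have both G2 lines above both G0 lines.

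Further genes of the pathway were taken from 5 lists. Of 70 such genes tested, 10 rose and 2 fell, where 5.93% of all genes tested rose and 4.56% fell. Among 7 secreted inhibitors, 3 rose and 0 fell, namely Wif1, Notum and Dkk2. Among 24 partners of the destruction complex, Axin2, Nkd1 and Amer2 rose and 0 fell. Amer2, which encodes a membrane anchor for APC, averaged 25.3 ± 0.1 normalized counts in G2 and 2.52 ± 2.18 in G0 (adjusted p = 0.0264). Among 16 nuclear partners, 3 rose and 1 fell. The corepressor gene Tle4 averaged 1972 ± 128 in G2 and 982 ± 207 in G0 (2.01-fold, adjusted p = 0.0147), and Ctnnbip1, whose protein blocks the binding of beta-catenin to TCF factors, averaged 379 ± 65 in G2 and 196.5 ± 15.1 in G0 (adjusted p = 0.0352). The third that rose was Sox17, whose protein can oppose beta-catenin and TCF, and Tcf7 fell 1.54-fold (adjusted p = 0.0300). Tcf7 missed the threshold with libraries scaled by their totals, Ctnnbip1 without a filter on low values, and Tcf7, Ctnnbip1, Tle4, Amer2 and Axin2 without an intensity trend.

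The branch without beta-catenin held 18 tested planar polarity and related genes, of which 1 rose and 1 fell (11.1%, against 10.5% of all genes tested). Prickle1, a cytoplasmic planar polarity component, averaged 388 ± 50.4 normalized counts in G2 and 688 ± 11.7 in G0 (1.77-fold lower, adjusted p = 0.0254), and Prickle2 averaged 12.4 ± 1.0 in G2 and 0.49 ± 0.69 in G0 (adjusted p = 0.0280). Prickle1 missed the threshold without an intensity trend, and Prickle2 when only genes averaging 10 or more normalized counts were tested. Among 5 genes that control receptor turnover 0 passed the limma test, with 2 at an unadjusted p under 0.05. Kremen1, Rnf43 and Znrf3 were picked from them with their values in view. Kremen1, which with DKK1 removes LRP6 from the cell surface, had 1023 and 1069 normalized counts in G2, against 1389 and 1634 in G0 (1.45-fold lower, adjusted p = 0.0640). Rnf43, whose ubiquitin ligase removes Frizzled receptors from the cell surface, had 10427 and 9912 normalized counts in G2, against 7184 and 8093 in G0 (adjusted p = 0.117). Both G2 lines were below both G0 lines for Kremen1 and above them for Rnf43. Its relative Znrf3 had 905 and 878 in G2, against 789 and 591 in G0 (adjusted p = 0.221). Of 17 target and feedback genes of the pathway, 4 rose and 2 fell (35.3%, against 10.5% of all genes tested), with a median log2 fold change of -0.05. They were Axin2, Nkd1, Notum and Prox1, which rose, and Tcf7 and Tnfrsf19, which fell. The lists share genes, and Axin2, Nkd1, Notum and Tcf7 were already counted among the calls of the 5 lists.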

How the data were processed

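Per the labels' protocols, RNA came from a column kit and a sequencing company prepared the libraries. Tools listed without roles in the submitters' processing notes are HISAT2 2.1.0, DESeq2 1.32.0, StringTie 2.1.1, bcl2fastq 2.20.0 and R 3.5.2, with the build mm10. No source used here gives annotation, strand setting or filters. The authors deposited 16857 genes by 4 libraries on a log2 scale with a shared floor of 6.508, the form of a variance-stabilizing transformation. Inverting it from that floor and finding 1 scale factor a library gave whole numbers for 100% of the values within 0.001. They can be rounded estimates, so no count model was run. limma 3.58.1 in R 4.3.3, with an intensity trend and group as the only term, was run on log2(normalized count + 1) over the 13981 genes averaging 1 or more. Such fold changes understate changes of low genes. The fit was tested on simulated data. Lengths are those of the longest APPRIS principal transcript (GENCODE M21), and coordinates and promoters come from RefSeq GRCm38.p6. The text names members past the threshold, the 3 most abundant per kilobase of each class, Apc and Tert, and others where it says so. Of the further lists, members past the threshold are named, at most 6 a list. The members and lists were chosen with earlier results of these data known. Alternatives covered the deposited scale, pseudocount, filter, library scaling, trend, replicate block, chromosome medians and leaving out each library.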

Additional observations from a re-analysis of the deposited data

How the results depend on the processing

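The count of 7 members past the threshold lay between 6 and 10 with the deposited scale, pseudocounts of 0.5 and 5, other filters, other library scaling and chromosome medians set equal, the last chosen after seeing the data. Without an intensity trend it was 2, Fzd3 and Wnt5a, and for the other pathway genes 6. Leaving out 1 library gave 0 to 0 for both counts (9 to 16 members at an unadjusted p under 0.05), with Tert between -6.59 and -5.61 and an adjusted p of 0.0909 to 0.158; the lone line is then assumed to vary like the other group. With a replicate block the counts were 18 and 22. Shares over all genes under these settings are not given here, so a move need not be particular to these members. The labels do not say that a number pairs lines, and deviations of same-numbered lines correlated at 0.109 across 13981 genes. Crossed numbers gave -0.109, which 2 lines a group fix as the mirror value, so the sign depends on the numbering alone. The cause of the moves in the counts was not tested.

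Small changes reversed. Dvl2 stood at 0.0206 with total-count scaling. Over the 4 leave-outs, log2 fold changes ran from -0.0921 to 0.183 for Wnt7b, -0.261 to 0.0913 for Wls, -0.118 to 0.168 for Fzd6, -0.0732 to 0.185 for Ryk, -0.019 to 0.668 for Lgr4, -0.237 to 0.148 for Dvl2, -0.0251 to 0.203 for Axin1, -0.0962 to 0.129 for Gsk3a and -0.41 to 0.446 for Tcf7l1. Without division by length the shares were 85.8% (Wnt7b in G2), 87.0% (Wnt7b in G0), 17.5% (Fzd1 in G2), 31.4% (Fzd1 in G0), 56.6% (Lrp5 in G2) and 64.4% (Lrp5 in G0). The median of all genes stood at 0.08 with total-count scaling, and chromosome medians lay between -0.04 and 0.10.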
